A study of Arabidopsis thaliana with 12 samples.

Results

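Arabidopsis seedlings kept for 3 h in IAA (indole-3-acetic acid, the principal auxin of plants) were compared with seedlings kept in it for 15 min, to describe how the transcript response to auxin moves on from its early to its late stage. The comparison was defined from the sample titles as the 3 IAA 3h arrays against the 3 IAA 15min arrays, which are 6 of the 12 arrays of the series, matched by replicate number. It covers all 28583 probe sets of the array, and a gene is named only where the platform annotation pairs a probe set with exactly 1 gene, which held for 16746 of them. A further 758 probe sets were paired with several genes and 11079 with none.

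All 4 groups were whole 7-day-old wild-type seedlings of the Col-0 ecotype, shaken in liquid medium. The IAA 3h and IAA 15min groups received 1 µM IAA dissolved in DMSO, and the mock 3h and mock 15min groups received 0.1% DMSO. Each group held 3 arrays, numbered 1 to 3, from an experiment repeated on 3 days. The p-values rest on the spread left between repeats of 1 experiment once the mean differences between replicate numbers are removed. This spread is pooled over all 4 groups, mock included. The series' design text puts growth at 6 or 7 days, and the treatment note in the labels does not list 15 min among its times. The times used here are those of the titles, so the length of the early treatment is uncertain.

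Auxin enters the nucleus, brings Aux/IAA repressor proteins to their receptors for breakdown and so releases the auxin response factors that sit on target genes. Among the first targets are the Aux/IAA genes themselves, SAUR genes of cell expansion and GH3 genes, whose enzymes join auxin to amino acids and so lower the free hormone. In roots, auxin also starts lateral roots through LBD transcription factors, and enzymes that loosen pectin, cellulose and xyloglucan in the wall act later as those organs emerge.

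The array gives 1 log2 level per probe set, and levels of different probe sets are not compared. The arrays had medians between 4.72 and 4.79. The interquartile range was 2.88 on IAA 3h array 1, 3.46 on IAA 15min array 1, 3.79 on mock 3h array 1 and 3.53 on mock 15min array 1, against 3.89 to 3.92 on the 8 other arrays. IAA 3h array 1 stood apart from the rest, its median correlation with the others being 0.940. The comparison was therefore repeated without the 4 arrays numbered 1, as given further on. RCA, the activase of Rubisco and the 1 measured of 6 leaf markers, lay between 10.54 and 10.61 in IAA 3h seedlings and between 10.49 and 10.52 in IAA 15min seedlings. PYK10, a root beta-glucosidase and the 1 measured of 10 root markers, lay between 10.93 and 11.40 and between 11.21 and 11.38 in the same groups. Both tissues of a seedling were therefore represented, and neither marker passed the test (log2 changes 0.07 and -0.08). The stem cell gene CLV3 (1 of 3 measured; 1.88 to 2.64 in IAA 3h, 1.91 to 2.51 in IAA 15min) and the pollen gene VGD1 (1 of 5 measured; 1.92 to 3.16 and 2.05 to 2.41) had low levels. In whole seedlings, fewer cells of a type and less RNA per cell cannot be told apart.

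Between 15 min and 3 h of IAA, 86 probe sets rose and 88 fell at a limma adjusted p under 0.05, which is 0.609% of the 28583 tested, 0.301% higher and 0.308% lower. The fit used the replicate number as a block, because the comparison was defined as paired by number. The deviations of the IAA arrays set array 1 apart from arrays 2 and 3 and did not single out shared numbers between these (IAA 3h array 2 correlated at 0.570 with IAA 15min array 2 and at 0.524 with IAA 15min array 3). Those of the mock arrays correlated weakly, at 0.121 to 0.265 between shared numbers and at -0.163 to -0.011 between different ones. Of the 86 that rose, 37 were paired with 1 gene and 49 with none. Of the 88 that fell, 33 were paired with 1 gene, 3 with several and 52 with none. All 174 moved the same way in all 3 same-numbered pairs, which 33.9% of all probe sets did. The IAA 3h and IAA 15min arrays did not overlap for all 86 rises and for 82 of the 88 falls, against 8.68% of all probe sets. The 174 were selected on these same values, so both counts describe the calls and add no separate evidence for them. The median log2 change was 1.12 among the rises, a 2.18-fold change, and -1.0 among the falls. Without the block, 46 probe sets passed, 28 higher and 18 lower, and all of them were among the 174.

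Of the 8 listed GH3 genes, the synthetases that join auxin to amino acids, 6 were measured, 3 rose and none fell. Over all probe sets, 0.301% rose and 0.308% fell. GH3.1 had levels of 8.16, 8.51 and 8.77 in IAA 3h seedlings, against 6.27, 6.82 and 6.87 in IAA 15min seedlings. All 3 late arrays lay above all 3 early ones, and the mock arrays lay lower still, at 4.86, 4.87 and 5.17 in mock 3h and 4.82, 4.92 and 5.20 in mock 15min. The change was 3.54-fold (log2 1.82, SE 0.13, n = 3 against 3; limma adjusted p = 0.000659). Relative to mock, GH3.1 was higher by 3.51 at 3 h and already by 1.67 at 15 min on the log2 scale, both past the threshold.

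GH3.3 had levels of 10.29, 10.85 and 10.93 in IAA 3h seedlings, against 8.11, 9.04 and 9.27 in IAA 15min seedlings. The groups were again fully apart (log2 1.88, SE 0.22; limma adjusted p = 0.00728), while mock levels lay between 6.49 and 7.97 at both times. GH3.3 exceeded mock by 3.64 at 3 h and by 1.63 at 15 min, both past the threshold. WES1, also called GH3.5, had levels of 8.90, 9.61 and 9.61 in IAA 3h seedlings, against 7.69, 8.03 and 8.31 in IAA 15min seedlings. It rose by log2 1.36 (SE 0.21; limma adjusted p = 0.0273), and it exceeded mock by 2.04 at 3 h, whereas its excess of 0.70 at 15 min did not pass the test. Without the block GH3.3 and WES1 did not pass (limma adjusted p = 0.115 and 0.107). GH3.3 also lost its call when IAA 15min array 1, IAA 3h array 2 or IAA 15min array 3 was left out, and WES1 when any IAA array but IAA 3h array 1, or mock 15min array 2 or 3, was left out, while GH3.1 kept its call without any single array.

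The other 3 measured GH3 genes did not pass. GH3.17 changed by 0.77 (limma adjusted p = 0.292), GH3.4 by 0.17 and GH3.9 by -0.21. The median of the 6 was 1.06, against -0.00 over all probe sets. Without the arrays numbered 1, 4 of the 6 rose, GH3.17 being the added one with a change of 1.02. In that fit 1.74% of all probe sets rose.

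Among the Aux/IAA repressors, 8 of the 29 listed genes were measured, 1 rose and none fell (0.301% and 0.308% of all probe sets). That gene, IAA29, had levels of 4.71, 5.24 and 5.67 in IAA 3h seedlings, against 3.80, 3.39 and 3.97 in IAA 15min seedlings. Every late array was above every early one, and mock levels ran from 2.38 to 3.08 over both times. The change was log2 1.48 (SE 0.24; limma adjusted p = 0.0333 with the block and 0.0509 without it), and it was 1.77 without the arrays numbered 1. IAA29 exceeded mock by 2.73 at 3 h, and by 1.00 at 15 min, which did not pass. The other 7, IAA15, IAA18, IAA20, IAA30, IAA31, IAA33 and IAA34, changed by 0.00 to 0.45, and IAA31 with 0.45 had an adjusted p of 0.231. The median of the 8 was 0.24.

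A second group of genes was high at 15 min and showed no passing change afterwards. HAT2, a class II homeodomain-leucine zipper transcription factor of the auxin response, had levels of 8.64, 9.64 and 9.89 in IAA 3h seedlings, against 9.66, 9.99 and 10.16 in IAA 15min seedlings. The groups overlapped, with IAA 3h array 1 the lowest of the 6, and the change of -0.54 did not pass (SE 0.22; limma adjusted p = 0.545). HAT2 exceeded mock by 1.5 at 3 h and by 1.99 at 15 min, both past the threshold. Without the arrays numbered 1, its excess was 1.89 at 3 h and 1.85 at 15 min, and both passed.

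LBD16 and LBD29 encode transcription factors that act in founder cells of lateral roots. LBD16 had levels of 5.47, 6.15 and 6.40 in IAA 3h seedlings, against 5.68, 6.45 and 6.39 in IAA 15min seedlings, a change of -0.17 (SE 0.24) between overlapping groups. Its excess over mock was 1.24 at 3 h, which did not pass (limma adjusted p = 0.0558), and 1.70 at 15 min, which did. Without the arrays numbered 1, the excess of LBD16 was 1.64 at 3 h and 1.73 at 15 min, both past the threshold. LBD29 had levels of 8.45, 9.72 and 9.65 in IAA 3h seedlings, against 7.43, 8.60 and 8.78 in IAA 15min seedlings. It was higher at the later time in each numbered pair, but the groups overlapped and the change of 1.00 did not pass (SE 0.30; limma adjusted p = 0.296). LBD29 exceeded mock by 3.52 at 3 h and by 2.69 at 15 min, both past the threshold.

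PUCHI, an AP2-type transcription factor of the lateral root primordium, had a different course. It had levels of 2.84, 2.81 and 3.03 in IAA 3h seedlings, against 2.02, 2.15 and 2.22 in IAA 15min seedlings, while mock lay between 1.97 and 2.31. The late IAA arrays stood above all 9 others, at a low level for this array, where the signal of a probe set is compressed. The rise was log2 0.76 (SE 0.13; limma adjusted p = 0.0399), and relative to mock it was 0.86 at 3 h and 0.02 at 15 min. Without the block PUCHI did not pass (limma adjusted p = 0.0742), nor did it without IAA 15min array 1 or without any single array numbered 2 or 3. In all, 4 of the 15 listed lateral root genes were measured and 1 rose, against 0.301% of all probe sets. CR4, a receptor kinase of root cell division, changed by 0.25.

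**Figure D1:**
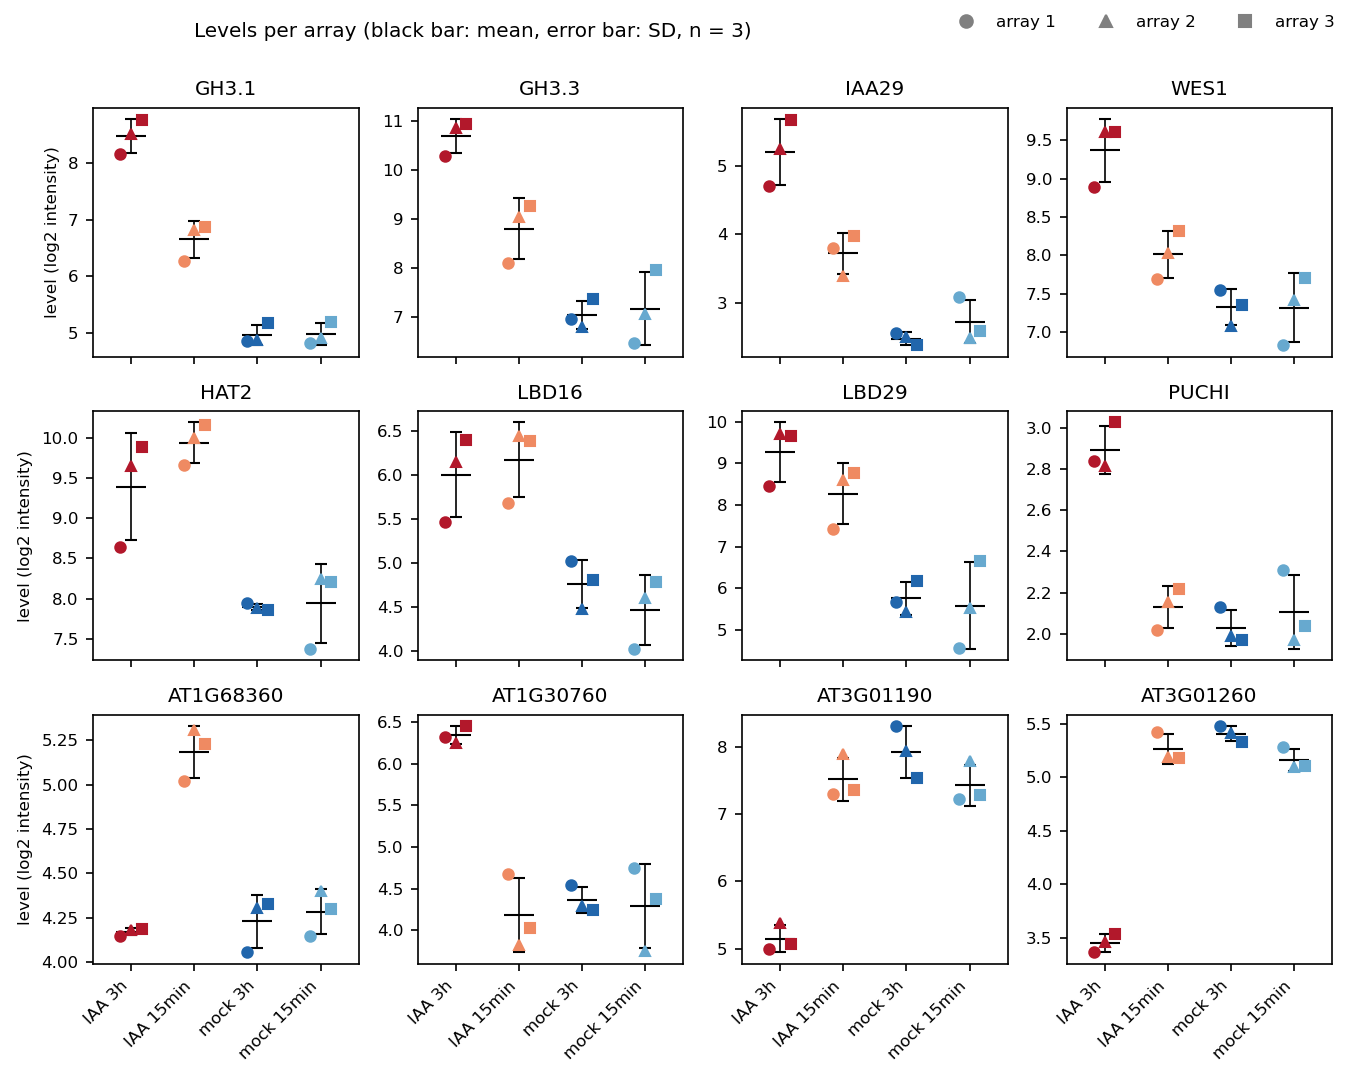
Level (log2 intensity) of 12 genes on each array, with the groups IAA 3h, IAA 15min, mock 3h and mock 15min from left to right, symbols for the array number, and bars for the mean and SD of 3 arrays. GH3.1, GH3.3, IAA29 and WES1 were highest in IAA 3h, HAT2 and LBD16 were about as high in IAA 15min, AT1G68360 was high in IAA 15min alone among the 4 groups, and AT3G01190 and AT3G01260 were low in IAA 3h alone.

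AT1G68360, which encodes a C2H2 zinc-finger protein, is described here after its values were seen, because it passed both against mock at 15 min and over time. It had levels of 4.15, 4.18 and 4.19 in IAA 3h seedlings, against 5.02, 5.30 and 5.23 in IAA 15min seedlings. The mock arrays ran from 4.05 to 4.40, so the late IAA arrays lay within the mock range and the early ones above it. The gene fell by 1.01 on the log2 scale (SE 0.11; limma adjusted p = 0.00507), and its excess over mock was -0.06 at 3 h and 0.90 at 15 min.

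Against mock at 15 min, 22 probe sets were higher in IAA seedlings and 0 lower (0.077% of 28583; limma, 396 at an unadjusted p under 0.05), and 9 of the 22 were paired with 1 gene. They were GH3.1, GH3.3, HAT2, LBD16, LBD29, AT1G68360, AT5G66580, AT5G41400 and AT3G50340, the last 3 named after their values were seen. Since the same IAA 15min arrays enter both comparisons, what follows is a description. Of the 22, 3 then rose and 4 fell between 15 min and 3 h, 13 passed against mock at 3 h, and 20 still lay above mock there. AT5G66580 exceeded mock by 0.80 at 3 h and 1.70 at 15 min, AT5G41400 by 0.88 and 1.17, and AT3G50340 by 1.00 and 1.07. Without the arrays numbered 1, more of the 22 passed against mock at 3 h, LBD16 and AT5G66580 (1.15) among them. AT1G68360 (-0.13) did not pass there. Against mock at 3 h, 96 probe sets were higher and 97 lower (0.675%).

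Apart from GH3.1, GH3.3 and IAA29, the 14 largest named rises differed from mock at 15 min by -0.43 to 0.36, and none of them passed there. At 3 h these genes exceeded mock by 0.58 to 1.98. They were selected as rises on the same IAA 3h and IAA 15min arrays, so these comparisons with mock are descriptions and add no separate evidence. AT5G14650 (1.07), AT2G12462 (0.58) and AT1G29195 (0.73) did not pass at 3 h (limma adjusted p = 0.246, 0.442 and 0.273), and the others did. Without the arrays numbered 1, AT5G14650, AT2G12462 and AT1G29195 passed against mock at 3 h as well. AT1G30760, a berberine bridge enzyme-like oxidase, had levels of 6.33, 6.25 and 6.45 in IAA 3h seedlings, against 4.68, 3.83 and 4.03 in IAA 15min seedlings, and mock levels of 3.76 to 4.75. The late arrays were apart from all others, a 4.48-fold rise (log2 2.16, SE 0.19; limma adjusted p = 0.00245), and the call held without any single array. AT5G14650, a polygalacturonase, which cuts pectin, had levels of 5.58, 7.39 and 8.06 in IAA 3h seedlings, against 4.65, 5.22 and 5.39 in IAA 15min seedlings. The late arrays were above the early ones but spread over more than 2 log2 units, and mock 3h arrays at 5.33, 6.19 and 6.29 also lay above mock 15min arrays at 4.65, 4.91 and 5.79 in each pair. It rose by log2 1.92 in IAA (SE 0.30; limma adjusted p = 0.0273), with a mock change of 0.82.

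AT1G62770, an inhibitor of pectin methylesterase, had levels of 5.23, 5.96 and 5.77 in IAA 3h seedlings, against 4.14, 3.82 and 3.67 in IAA 15min seedlings. It rose by log2 1.78 (SE 0.21; limma adjusted p = 0.00695). AT1G67750, a pectate lyase, had levels of 7.34, 7.08 and 7.24 in IAA 3h seedlings, against 5.69, 5.39 and 5.38 in IAA 15min seedlings. For both genes the groups did not overlap. The pectate lyase rose by log2 1.74 (SE 0.18; limma adjusted p = 0.0046), and its mock change was 0.29. A further pectate lyase, AT4G13710, noticed after the values were seen, rose by 0.73 (limma adjusted p = 0.04).

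The largest rise with a gene name was that of AT5G65320, a basic helix-loop-helix transcription factor. Its levels were 4.37, 5.54 and 5.41 in IAA 3h seedlings, against 3.00, 2.89 and 2.83 in IAA 15min seedlings. The late arrays were all above the early ones, with array 1 the lowest of the late ones. Mock 3h arrays, at 3.15 to 3.47, also lay above mock 15min arrays, at 2.75 to 2.90, a mock change of 0.45 that did not pass. The change in IAA was 4.6-fold (log2 2.20, SE 0.24; limma adjusted p = 0.00584).

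Among secreted signals, IDL4, a peptide of the IDA family, which is known for organ shedding and cell separation, had levels of 6.01, 5.66 and 5.61 in IAA 3h seedlings, against 4.77, 3.92 and 3.76 in IAA 15min seedlings. It rose by log2 1.61 (SE 0.28; limma adjusted p = 0.04). CLE44, a peptide that acts on vascular stem cells, and RALFL18, a peptide of the RALF family, were picked out with their values known. CLE44 rose by 1.18 (limma adjusted p = 0.038) and RALFL18 by 1.40 (limma adjusted p = 0.044), each with groups that did not overlap.

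The remaining 6 of the 14 largest named rises had groups that did not overlap and changes of 1.48 to 1.84. AT5G67430 and AT2G23060, both of the N-acetyltransferase family, rose by 1.84 and 1.52. AT2G04090, a MATE-type efflux carrier, rose by 1.66. AT2G12462 rose by 1.51 and AT1G29195 by 1.48, and IAA29, described above, by 1.48. The mock change was 0.73 for AT2G12462, 0.62 for AT2G04090, 0.44 for AT5G67430 and 0.32 for AT1G29195, against -0.13 for AT2G23060.

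**Figure D2:**
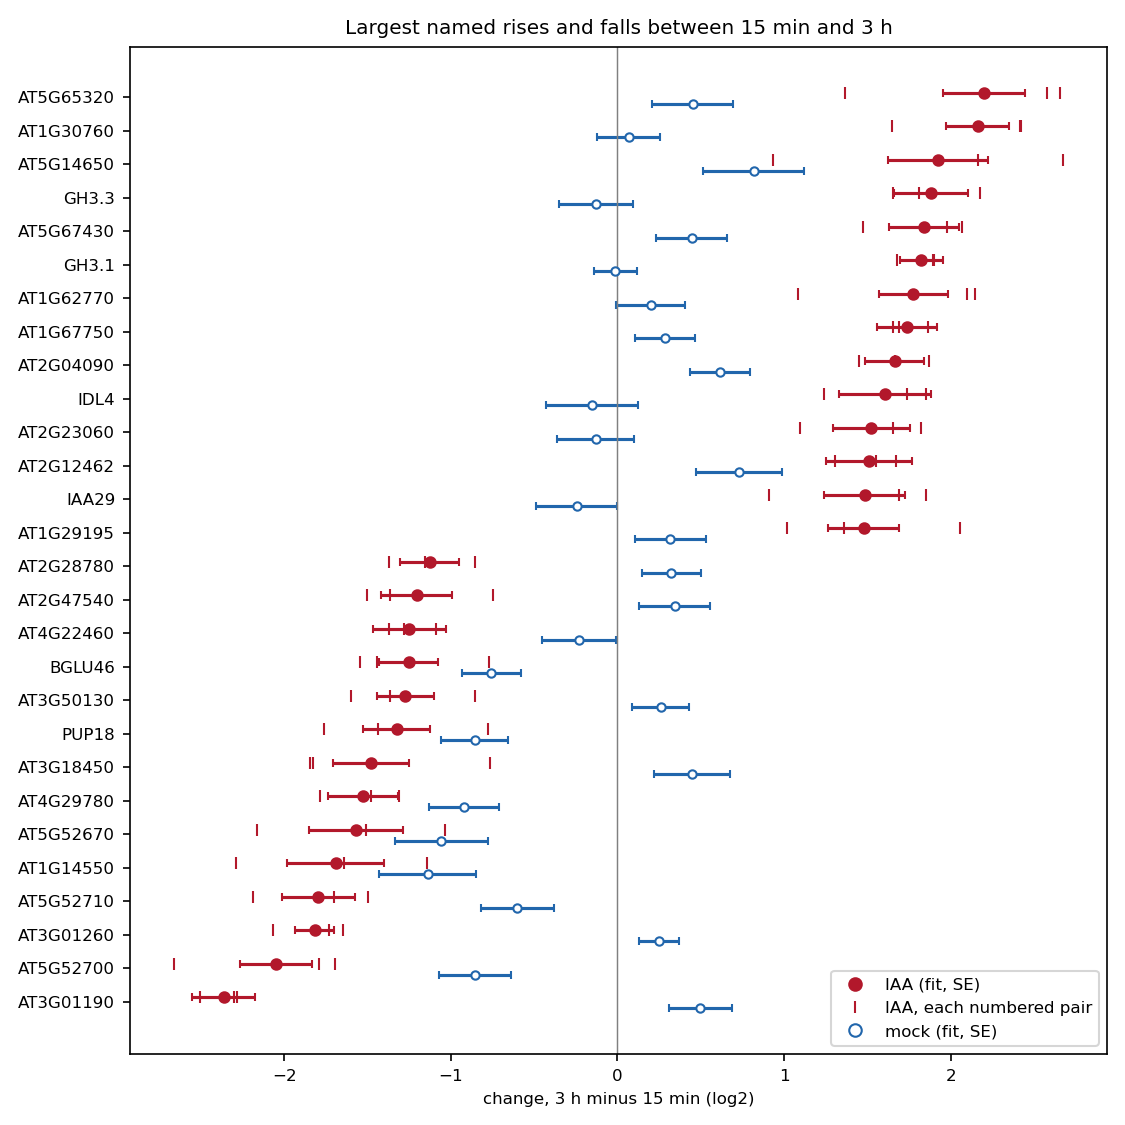
Change between 15 min and 3 h (log2) of the 14 largest named rises and 14 largest named falls, with filled points for IAA and open points for mock, bars for the SE of the fit, and ticks for the 3 numbered IAA pairs. Mock changes of the rises ran from -0.24 for IAA29 to 0.82 for AT5G14650, and the falls divide into 7 genes with a mock change of -0.23 to 0.50 and 7 with one of -1.14 to -0.60.

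In 6 of the 14 largest named falls the mean mock level over all arrays was higher at 3 h than at 15 min. The falls were selected on the IAA 3h and IAA 15min arrays, so comparisons of these arrays with mock are descriptions. AT3G01190, a class III peroxidase, an enzyme family that uses hydrogen peroxide to cross-link or loosen walls, had levels of 5.0, 5.38 and 5.06 in IAA 3h seedlings, against 7.30, 7.89 and 7.35 in IAA 15min seedlings. All late IAA arrays lay below all other arrays, since mock gave 8.30, 7.93 and 7.53 at 3 h and 7.22, 7.78 and 7.28 at 15 min. The gene was 5.15-fold lower (log2 -2.36, SE 0.19; limma adjusted p = 0.00135). Relative to mock it was -2.77 at 3 h and 0.09 at 15 min.

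AT3G01260, a protein of the galactose mutarotase family, had levels of 3.36, 3.46 and 3.53 in IAA 3h seedlings, against 5.43, 5.19 and 5.18 in IAA 15min seedlings. The 3 late arrays were again below the other 9, with mock between 5.10 and 5.48. It fell by 1.82 on the log2 scale (SE 0.12; limma adjusted p = 0.000457), and it stood at -1.96 relative to mock at 3 h and 0.11 at 15 min. AT3G01190 and AT3G01260 kept their calls without the block and without any single array.

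AT3G18450, of the PLAC8 family, had levels of 5.02, 4.81 and 3.89 in IAA 3h seedlings, against 5.79, 6.65 and 5.72 in IAA 15min seedlings. The groups did not overlap, and it fell by 1.48 (SE 0.23; limma adjusted p = 0.0263 with the block and 0.403 without it), with a mock change of 0.45. AT3G50130, a DUF247 protein, fell by 1.27, AT2G47540, a protein of the Ole e 1 family, by 1.21, and AT2G28780 by 1.13. Their mock changes were 0.26, 0.34 and 0.32 with all arrays, and 0.08, -0.0005 and 0.06 without the arrays numbered 1. With all arrays, AT3G18450 and these genes, 4 in all, lay below mock at 3 h past the threshold, with log2 differences of -1.48 to -2.02. AT4G22460, a lipid transfer protein, fell by 1.25 with a mock change of -0.23, and its IAA groups overlapped (5.68, 4.80 and 4.34 in IAA 3h, against 6.77, 6.17 and 5.63 in IAA 15min).

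For the other 7 of the 14 largest falls, mock seedlings also had lower levels at 3 h. AT5G52700 had levels of 3.2, 3.41 and 4.02 in IAA 3h seedlings, against 4.99, 6.07 and 5.71 in IAA 15min seedlings, and of 3.59, 4.75 and 4.06 in mock 3h, against 4.36, 5.43 and 5.18 in mock 15min. Both treatments were lower at 3 h in every numbered pair. The change was -2.05 in IAA (SE 0.21; limma adjusted p = 0.0046) and -0.86 in mock, and the difference between them did not pass (limma adjusted p = 0.58). AT5G52710 and AT5G52670, which with AT5G52700 belong to a cluster of heavy-metal-associated domain genes on chromosome 5, fell by 1.80 and 1.57, with mock changes of -0.60 and -1.06. Whether the probes of these related genes bind each other's transcripts was not tested.

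The peroxidase AT1G14550 had levels of 4.24, 4.48 and 3.32 in IAA 3h seedlings, against 6.53, 6.12 and 4.47 in IAA 15min seedlings. It was lower in each pair, by 1.14 or more, but the groups overlapped, both arrays numbered 3 being low. It fell by 1.69 in IAA (limma adjusted p = 0.0406 with the block and 0.575 without it), with a mock change of -1.14. AT4G29780 fell by 1.53, PUP18, a purine permease, by 1.32, and BGLU46, a beta-glucosidase that acts on lignin precursors, by 1.25. Their mock changes were -0.92, -0.86 and -0.76. For AT1G14550, AT4G29780, PUP18, BGLU46 and AT5G52670 the limma adjusted p of the difference between IAA and mock was 0.856.

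Over the whole table, mock 3h against mock 15min gave 0 called probe sets (0% of 28583; limma, 1852 at an unadjusted p under 0.05, which is 6.48%). The difference between the IAA and mock time changes was called for 6 probe sets (0.021%), 3 higher and 3 lower (0.0105% each). With a gene name these were GH3.1, with a difference of 1.84 (SE 0.18; limma adjusted p = 0.0115), AT3G01190 with -2.86 (SE 0.27; limma adjusted p = 0.0095) and AT3G01260 with -2.07 (SE 0.17; limma adjusted p = 0.00354). The other 3 were not paired with a gene and are given by probe set number. Probe set 13456003, which also had the largest rise of the table, had levels of 6.33, 7.34 and 7.47 in IAA 3h seedlings, against 3.9, 4.31 and 4.31 in IAA 15min seedlings (log2 2.88, SE 0.17; limma adjusted p = 0.00036). Its late arrays lay above all others, with mock at 3.28 to 3.86. Probe set 13405370 rose by 2.29 and probe set 13463093 fell by 1.60.

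All 6 were among the 174, and for the others the difference between the treatments did not pass. The median mock change was 0.18 among the 86 rises, of which 57 had a mock change above 0, and -0.26 among the 88 falls, of which 62 had one below 0. Over all probe sets, 41.9% had a mock change above 0. Of the falls, 28 had a mock change at least 0.5 times the size of that in IAA, against 2 of the rises. Without the arrays numbered 1, this held for 340 of 675 falls and 152 of 496 rises. Those larger sets held smaller IAA changes, with medians of -0.69 and 0.68, against -1.0 and 1.12 with all arrays. The counts with and without these arrays are thus over unlike sets.

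Of 64 measured class III peroxidases, out of 73 listed, none rose and 3 fell (0.301% and 0.308% of all probe sets), namely AT3G01190, AT1G14550 and AT4G30170, which changed by -0.85 (limma adjusted p = 0.0188). Their range was -2.36 to 1.19, with a median of -0.04. Of 10 xyloglucan endotransglucosylases, enzymes that cut and rejoin wall xyloglucan, XTH21 fell by 0.81 (limma adjusted p = 0.0433 with the block and 0.805 without it), with overlapping groups, and the median was -0.05. None of 24 expansins, which loosen walls, passed, and their median was 0.13. The expansin with the smallest p, EXPB1, had levels of 5.19, 4.37 and 4.23 in IAA 3h seedlings, against 5.56, 5.40 and 5.41 in IAA 15min seedlings, a change of -0.86 (limma adjusted p = 0.0804). None of 5 measured SAUR genes passed, with a median of 0.08. Among them AT2G18010 exceeded mock by 1.23 at 3 h, which passed, and by 1.31 at 15 min, which did not, and changed by -0.62 over time.

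None of the 4 measured auxin synthesis genes, out of 14 listed, passed. YUC6, a flavin monooxygenase of the last step to IAA, had the smallest p, with levels of 3.28, 3.83 and 3.64 in IAA 3h seedlings, against 4.03, 4.10 and 4.24 in IAA 15min seedlings (log2 -0.53; limma adjusted p = 0.166). Its groups did not overlap, and it lay 0.97 below mock at 3 h. None of the 4 measured genes of auxin oxidation and glucosylation, out of 5, passed, the largest change being -0.28 for AT1G14120. Without the arrays numbered 1, 1 of the 4 passed, UGT74D1, an auxin glucosyltransferase, with a change of 0.62, against 0.09 with all arrays. There, 1.74% of all probe sets rose. The kinase WAG2 was the 1 measured member of the 20 auxin transport genes and changed by -0.12.

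Outside the auxin pathway, 2 of 17 cytokinin genes were measured. ARR15, a type-A response regulator that cytokinin induces, had levels of 2.99, 2.38 and 2.54 in IAA 3h seedlings, against 3.64, 5.28 and 5.72 in IAA 15min seedlings. The groups did not overlap, but the pairs differed by -0.66, -2.90 and -3.18, and the change of -2.25 did not pass (SE 0.48; limma adjusted p = 0.094, and 0.000136 to 0.481 over 20 alternatives). Without the arrays numbered 1 it passed with a change of -3.04. In mock it changed by -0.93, and the difference between the IAA and mock time changes did not pass in either fit. RR16 changed by 0.05. The touch and stress gene STZ (1 of 21 measured) changed by -0.81 and the clock gene GI (1 of 14) by -0.20, and neither passed. The root hair expansins EXPA18 and EXPA7, 2 of 5 root hair markers, changed by 0.37 and 0.04. The other lists had no member with a single-gene probe set and were not analysed here, namely auxin receptors and response factors, ethylene synthesis, gibberellin and brassinosteroid metabolism, cell cycle and seed storage.

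The numbered pairs did not weigh alike. In pair 1, the difference between IAA 3h and IAA 15min fell with the level, with a median of 0.31 over the dimmest probe sets and -0.22 over the brightest, cut at the quartiles of the level, and 7.35% of probe sets differed by over 1 log2 unit. In pair 2 these values were -0.01, 0.03 and 1.2%, and in pair 3 they were 0.01, 0.01 and 1.17%. Across probe sets, which are not independent, the changes of pairs 2 and 3 correlated at 0.571, those of pairs 1 and 2 at 0.163 and those of pairs 1 and 3 at 0.212. These correlations are descriptions and share no array.

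**Figure D3:**
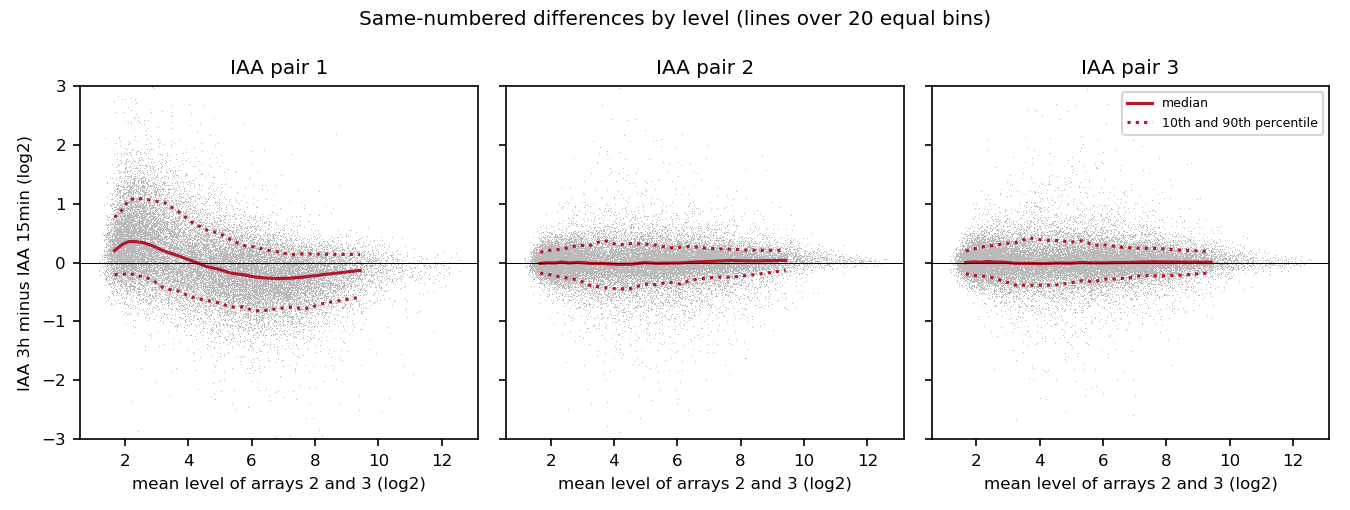
Difference between IAA 3h and IAA 15min (log2) in each numbered pair against the mean level of arrays 2 and 3 (log2), 1 point per probe set, with the median and the 10th and 90th percentiles over 20 equal bins. The median of pair 1 runs from above 0 at low levels to below 0 at high levels, while those of pairs 2 and 3 stay near 0.

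Without the 4 arrays numbered 1, which left 2 arrays in each group and 3 residual degrees of freedom, 1171 probe sets passed between IAA 3h and IAA 15min, 496 higher and 675 lower (4.1% of 28583, 1.74% higher and 2.36% lower). Of the 174 found with all arrays, 86 of 86 rises and 87 of 88 falls were among them. In mock, 397 passed, 124 higher and 273 lower (1.39%, 0.434% higher and 0.955% lower). The difference between the treatments passed for 83 probe sets (0.29%), 44 higher (0.154%) and 39 lower (0.136%). Of the 496 IAA rises, 55 were also mock rises, which is 11.1% of the IAA list and 44.4% of the mock list, and 1 was a mock fall. Of the 675 IAA falls, 174 were also mock falls, which is 25.8% of the IAA list and 63.7% of the mock list, and 3 were mock rises. These time comparisons share no array, but their calls rest on the same estimate of the spread per probe set, so the lists are not independent.

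Among the named genes, the smaller set of arrays moved several across the threshold of the difference between the IAA and mock time changes. That difference was 2.17 for GH3.3, 1.78 for WES1, 1.88 for IAA29 and 2.12 for AT5G65320, all past it. AT1G30760 with 2.22, AT1G62770 with 1.83 and AT3G18450 with -2.04 also passed. So did IDL4 with 1.45, AT2G23060 with 1.60, AT1G67750 with 1.18 and AT2G12462 with 1.15. Among genes that fell, AT2G28780 with -1.32, AT2G47540 and AT4G22460 with -1.43 each, XTH21 with -1.22 and EXPB1 with -1.57 passed. The falls shared with mock did not pass there, with differences of -1.28 for AT5G52700, -0.36 for AT5G52670, -0.22 for AT4G29780 and -0.24 for BGLU46. Mock itself changed past the threshold there for AT5G52670 and AT4G29780 among the named falls and for AT5G67430, AT1G67750 and AT2G12462 among the named rises. Of these rises, AT1G67750 and AT2G12462 were still larger in IAA than in mock past the threshold, as given above. For AT5G67430 the difference of 1.25 did not pass (limma adjusted p = 0.0527). Of the 64 measured peroxidases, 5 rose and 9 fell, against 1.74% and 2.36% of all probe sets there. AT5G14130 and AT2G18980, peroxidases picked out with their values known, changed by 1.53 and 1.41 there, against 1.19 and 1.07 with all arrays, which did not pass. EXPB1 fell by 1.10, with 1 of the 24 expansins higher and 3 lower in all, and 2 of the 10 xyloglucan endotransglucosylases fell.

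**Figure D4:**
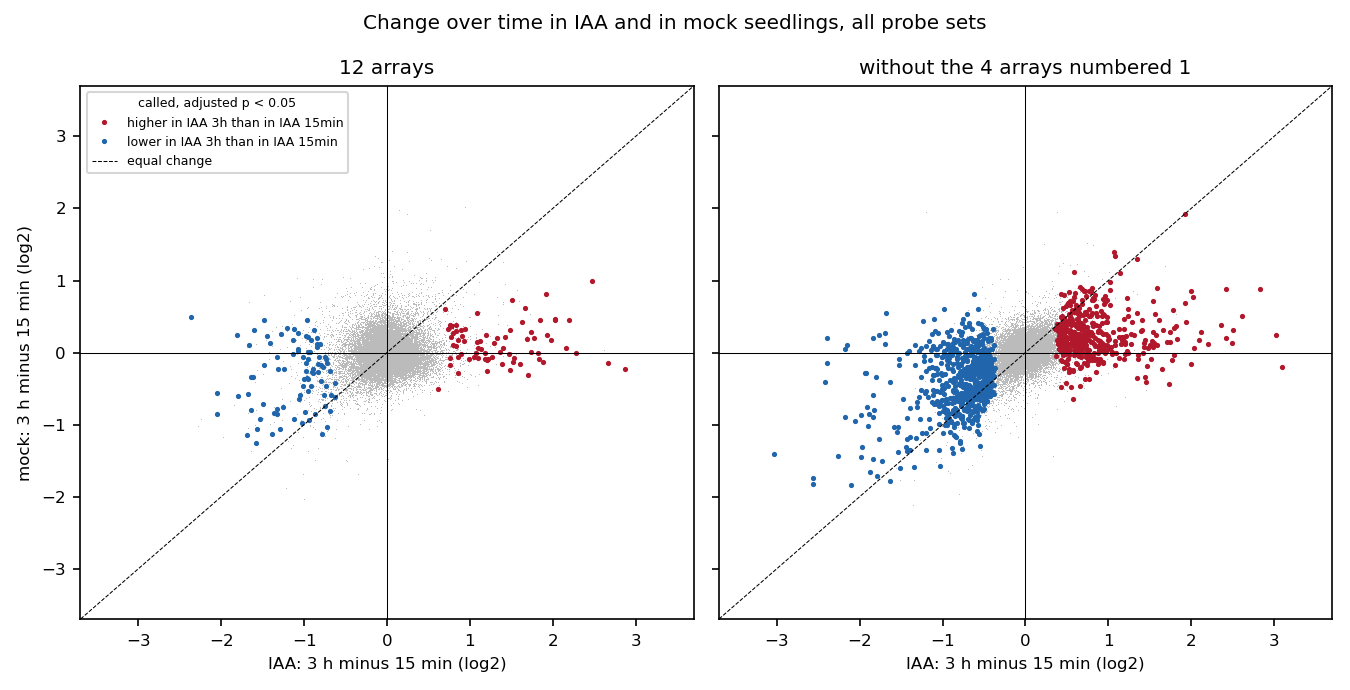
Change between 15 min and 3 h (log2) in IAA seedlings (x axis) and mock seedlings (y axis), 1 point per probe set, with all 12 arrays on the left and without the 4 arrays numbered 1 on the right, coloured where the IAA change was called. Of the falls on the right, 174 of 675 were also called lower in mock, and of the rises 55 of 496 were called higher.

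**Figure D5:**
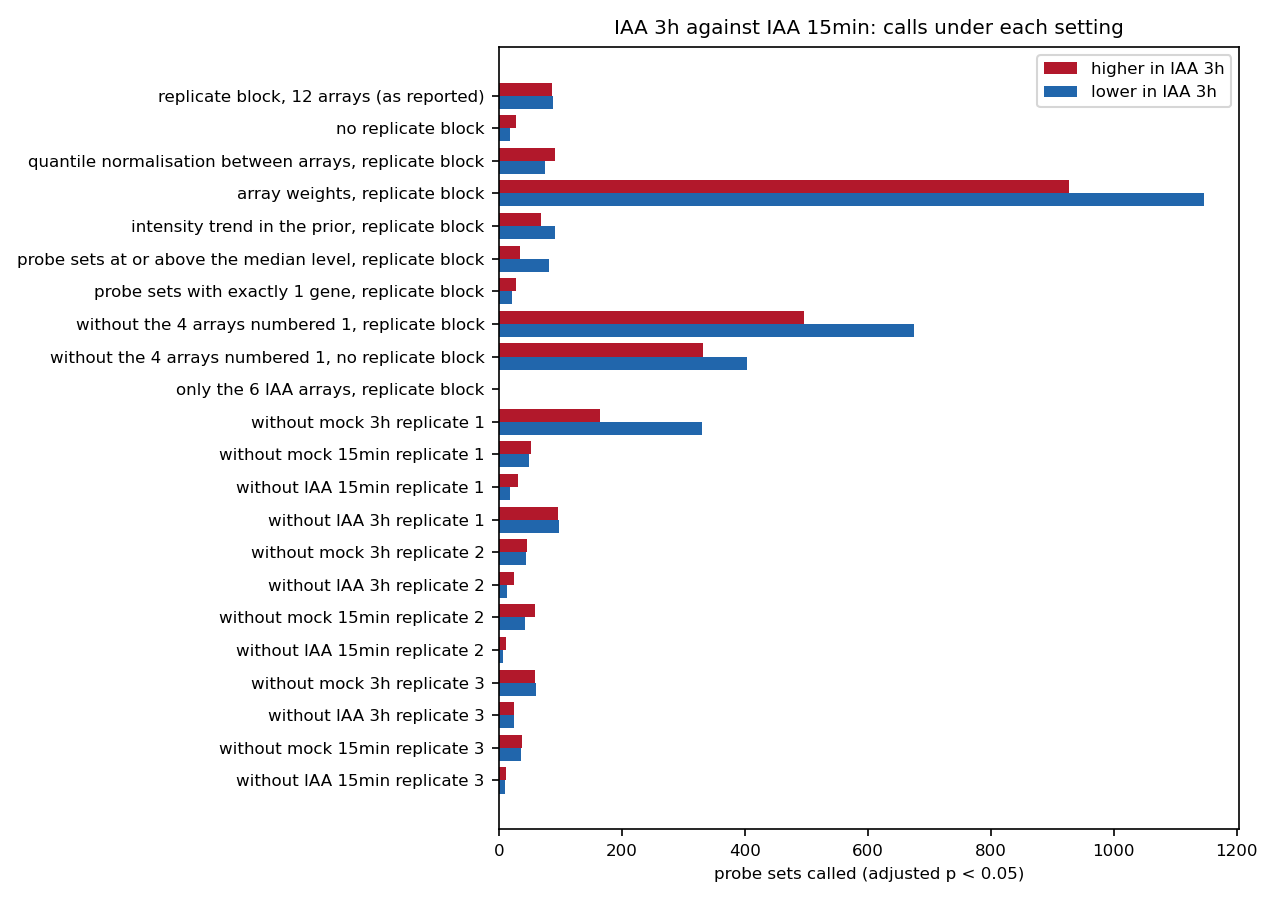
Number of probe sets called higher or lower in IAA 3h than in IAA 15min (adjusted p under 0.05) under each setting. The count was 174 as reported, ran from 17 to 495 when 1 array was left out, was 1171 without the 4 arrays numbered 1 and was 0 with only the 6 IAA arrays.

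Of the named genes with a call, GH3.1, AT1G30760, AT2G04090, AT3G01190 and AT3G01260 kept it without any single array, and each of the others lost it without at least 1, most often IAA 15min array 2 or 3. The number of calls depended on single arrays, as the bars of calls under each setting show. Leaving out IAA 15min array 2 left 17 and leaving out IAA 15min array 3 left 20, while leaving out mock 3h array 1, which is in neither group compared but enters the estimate of the spread, gave 495. With only the 6 IAA arrays, 2 residual degrees of freedom remain and limma called 0 (2417 at an unadjusted p under 0.05).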

How the data were processed

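Total RNA of 12 whole-seedling samples was hybridised to 1 array each. The deposited log2 values come from RMA as run by the authors through oligo, of unstated version, per the submitters' processing notes. RMA subtracts background, equalises arrays and summarises probes, so low levels are compressed. A genome build is not given in the sources used here, and no coordinates or sequences are printed. Values were used as deposited. Names were updated through a RefSeq table of assembly TAIR10.1, where gene numbers matched 16601 single-gene probe sets and locus tags 96, and 49 kept the platform's symbol.

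limma 3.58.1 (R 4.3.3; lmFit, eBayes) was fitted over 4 groups and 12 arrays, with the replicate number as a block (6 residual and 3.83 prior degrees of freedom), no filter, and Benjamini-Hochberg adjustment over 28583 probe sets. Contrasts were IAA 3h minus IAA 15min, mock 3h minus mock 15min, their difference, and IAA minus mock at each time. Same-numbered arrays, each taken as deviations from its group's mean, correlated at 0.700, 0.570 and 0.625 between IAA 3h and IAA 15min, and at 0.130, 0.121 and 0.265 between the mock groups. Differently numbered IAA arrays correlated at 0.524 (IAA 3h array 2 with IAA 15min array 3) and 0.574 (3 with 2), and array 1 with array 2 or 3 at -0.679 to -0.616. Array 2 minus array 3 correlated at 0.134 between the IAA groups and at 0.330 between the mock groups. The IAA values thus set array 1 apart from arrays 2 and 3 and do not single out shared numbers between 2 and 3. Between the mock groups, differently numbered arrays correlated at -0.163 to -0.011. There, same-numbered arrays correlated more, though weakly, and array 1 was not set apart. The block follows the definition of the comparison as paired by number, and the labels do not say that a number marks a day. Within a group, arrays 2 and 3 had correlations of 0.995 to 0.996, and no array was a copy of another. The script was tested on simulated data.

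Named genes are the 14 largest rises and 14 largest falls among called single-gene probe sets whose 3 pairs share a sign, up to 4 called members of each list or else its member with the smallest p, and 8 auxin targets. Gene symbols with several probe sets are represented by that with the highest mean. The comparison and the lists were chosen with earlier results of these data known, and the list of peroxidase loci was written after the files were seen. Alternatives were no block, quantile normalisation, array weights, an intensity trend, a filter on dim probe sets, single-gene probe sets, fewer arrays and leaving out each array. Figures were drawn in Python 3.11.15 (matplotlib 3.10.9, pandas 2.3.3).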

Additional observations from a re-analysis of the deposited data

Results flagged for a closer look

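The time change differed between IAA and mock seedlings, by a test of the difference itself, for 6 probe sets at a limma adjusted p under 0.05. Those with a gene name were GH3.1, with a change in IAA minus that in mock of 1.84, AT3G01190, with -2.86, and AT3G01260, with -2.07, all on the log2 scale. For each of the 3 genes the IAA 3h arrays lay apart from all 9 other arrays. The groups hold 3 arrays each, too few to test a single array as an outlier within its group.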

How the results depend on the processing

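The IAA 3h against IAA 15min count of 174 was 166 after quantile normalisation and 159 with an intensity trend. It was 46 with no replicate block, 2075 with array weights, 115 among probe sets at or above the median level (14292 tested), 48 among single-gene probe sets, 1171 without the 4 arrays numbered 1 with the replicate block and 736 without the block, and 0 with only the 6 IAA arrays. Leaving out 1 array gave 17 to 495. The mock count of 0 became 1083 with array weights, 397 without the arrays numbered 1 and 239 without them and without the block, and was 0 to 1 when 1 array was left out, the 1 without IAA 3h array 3. The count of 6 for the difference became 13 after quantile normalisation, 338 with array weights, 3 among single-gene probe sets, 83 without the arrays numbered 1 and 36 without them and without the block, and was 2 to 33 when 1 array was left out. It was 5 with no block. Array weights were 0.107 for IAA 3h array 1 and 0.0888 for mock 3h array 1, against at most 2.97 for any array. The cause of these shifts was not tested. Leaving out IAA 3h array 2, IAA 3h array 3, IAA 15min array 1, 2 or 3, mock 3h array 2 or mock 15min array 1, 2 or 3 gave 37, 48, 48, 17, 20, 90, 101, 100 and 73.

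Of the 48 named genes, 32 had a call, and the others were named as targets or list members without passing. Of the 32 calls, 23 were lost without the block and all 32 with only the 6 IAA arrays. Among single-gene probe sets 7 were lost, after quantile normalisation 4 and with an intensity trend 1. Without 1 array up to 26 were lost, the most without IAA 15min array 2 or 3. The genes GH3.1, AT1G30760, AT3G01190 and AT3G01260 kept their calls under all 21 alternatives but the 6 IAA arrays. The direction changed only for genes that never passed. PYK10 (-0.08) was 0.0194 with array weights, 0.0214 without arrays 1, with or without the block, and -0.156 to 0.0365 without 1 replicate, the upper end without IAA 3h array 1. CLV3 (0.03) was -0.0648 after quantile normalisation, -0.0264 with array weights, -0.0214 without arrays 1, with or without the block, and -0.0945 to 0.104 without 1 replicate. VGD1 (0.25) was -0.0536 with array weights and -0.0713 to 0.525 without 1 replicate. The number of arrays limits the precision, and most called probe sets carry no gene name here.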
